A study of Mus musculus with 6 samples.

Results

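Notch1, Notch2 and Notch3 encode receptors, Dll1, Dll3, Jag1 and Jag2 encode ligands, and Hes1, Hey1 and Hey2 are target genes of the Notch pathway. All probe sets whose only symbol in the annotation of the Affymetrix Mouse 430 2.0 array is 1 of these 10 genes were taken, which gave 16 of the 45037 probe sets and 10 of the 18193 genes with a probe set of 1 symbol. Receptors had 6 probe sets, ligands 7 and targets 3, and 5 genes had more than 1 probe set. Probe sets of 1 gene share their target and are not replicates.

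The Notch pathway carries signals between touching cells. A ligand of the Delta or Jagged family on one cell binds a Notch receptor on its neighbour, the receptor is cut by ADAM metalloproteases and then by gamma-secretase, and the freed intracellular domain enters the nucleus and joins the DNA-binding protein RBPJ to switch on target genes such as those of the HES and HEY repressors. In the early embryo the pathway acts in the formation of somites, arteries, heart and nervous system.

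Expression was measured in A2.Snail cells, a line of mouse ESCs (A2lox cells with a Snail transgene placed by Cre recombination behind a promoter that doxycycline, dox, switches on). Cells were grown as embryoid bodies in medium with 10% FCS and the Wnt inhibitor DKK1. Dox was added on day 2 to a final 250 ng/mL in the DKK + dox cultures and left out of the DKK cultures, and RNA was taken 6, 12 and 24 hours later, on days 2.25, 2.5 and 3. Each condition and time has 1 array, so that 3 arrays carry DKK and 3 carry DKK + dox. All 6 arrays are of the same line with the transgene, so that the Snail protein and dox itself cannot be told apart, and no replicate stands behind a difference read at 1 time. In these bulk samples, fewer cells of a type and less RNA per cell cannot be told apart.

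Intensities are linear values from dChip with a lowest value of 1 and a median of 53.5 to 63.7 per array, and an intensity of 37.2, the 40th percentile of all values, is called the low-signal limit here. Of all probe sets, 37.5 to 41.3 percent lay at or under it on each array. Differences subtract DKK from DKK + dox after adding 20.6, the 25th percentile, to each intensity and taking log2, which shrinks the changes of weakly expressed genes. The 31597 probe sets above the limit on at least 1 array, among them all 16 of the Notch genes, were fitted with limma for a difference with dox proportional to the hours since its addition. Fitted differences give this line at 24 hours, and a probe set is said to have risen or fallen where its p-value, adjusted over all 31597, was under 0.05. Sizes given with a rise or fall are fitted. They can exceed every measured difference, since the line starts from no difference when dox is added. With 2 residual degrees of freedom, the p-values reflect how far the arrays depart from the line, not the spread between cultures. Cdh1, the E-cadherin gene that Snail is known to repress, fell by 1.25 in the fit (SE 0.16, adjusted p = 0.00456 from limma over 6 arrays). Its measured differences were -0.37, -1.05 and -1.02 at 6, 12 and 24 hours. The probe set of Snai1 was under the low-signal limit on all 6 arrays, 10.9 to 32.9, and does not check the labels, since it may not lie within the transgene.

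Promoters were read for the 10 genes. Shown are the 3 that hold a Snail E-box, those of Hey2 and Dll3 and the upstream one of Dll1, and that of Jag2, which holds none. Those not shown, among them the promoters of Notch1, Notch3 and Jag1, hold no E-box. RefSeq (GRCm38.p6) held 9 promoters for 8 of the 10 genes, with no entry for Hes1 and Hey1. Each sequence is the 250 bases before the start of transcription, 5′ to 3′ on the strand of the gene, and capitals mark CAGGTG, an E-box that Snail binds, and TGGGAA, the core bound by RBPJ, on either strand (as CACCTG or TTCCCA when reversed). Hey2 lies on the minus strand (chr10:30842784-30843033), Jag2 on the minus strand (chr12:112929496-112929745), Dll1 on the minus strand with its upstream promoter at chr17:15376933-15377182, and Dll3 on the minus strand (chr7:28301786-28302035).
Hey2: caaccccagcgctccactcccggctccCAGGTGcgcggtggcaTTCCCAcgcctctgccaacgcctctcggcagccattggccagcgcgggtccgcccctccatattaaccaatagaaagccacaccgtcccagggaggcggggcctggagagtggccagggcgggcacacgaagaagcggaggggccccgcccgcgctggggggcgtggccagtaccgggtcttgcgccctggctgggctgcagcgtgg
Jag2: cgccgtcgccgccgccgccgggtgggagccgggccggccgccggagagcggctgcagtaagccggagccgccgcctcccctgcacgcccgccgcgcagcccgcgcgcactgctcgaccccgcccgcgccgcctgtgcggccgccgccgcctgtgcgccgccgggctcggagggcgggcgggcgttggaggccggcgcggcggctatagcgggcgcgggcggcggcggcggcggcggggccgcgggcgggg
Dll1: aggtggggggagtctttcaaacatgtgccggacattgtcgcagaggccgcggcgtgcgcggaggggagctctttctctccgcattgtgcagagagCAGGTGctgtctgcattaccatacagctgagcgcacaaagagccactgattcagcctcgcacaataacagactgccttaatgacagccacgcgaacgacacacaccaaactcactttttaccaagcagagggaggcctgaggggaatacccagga
Dll3: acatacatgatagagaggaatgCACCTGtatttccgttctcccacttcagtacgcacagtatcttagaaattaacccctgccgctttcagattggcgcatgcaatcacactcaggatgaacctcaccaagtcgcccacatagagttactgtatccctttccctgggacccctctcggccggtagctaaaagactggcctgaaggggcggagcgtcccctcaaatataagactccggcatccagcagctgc
The Hey2 window held both motifs, the E-box from 223 and the RBPJ core from 207 bases before the start. The E-box stood from 155 bases before the start in the upstream of the 2 Dll1 promoters and from 228 in Dll3. None of the other 6 promoters held the E-box, so that it was in 3 of 9, against 17.2 percent of 32851 promoters. The RBPJ core was in 1 of 9, against 21.6 percent. Of the sites bound by HES and HEY proteins, CACGTG was in 0 of 9 (6.02 percent of all promoters) and CACGCG in 3 of 9 (7.62 percent), those of Notch2, Dll1 and Jag1. No matches overlapped, and a match is a description of the letters only. The Jag2 window stood out by its base composition, with 87.2 percent G and C and 54 CpG dinucleotides. The 9 windows ran from 52.0 to 87.2 percent G and C, with a median of 66.0, while the median of all promoters was 52.4.

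With Snail induced, Hey2, Notch1 and Notch3 rose and Jag2 fell, each in 1 probe set. Hey2 did not exceed the low-signal limit on 4 of 6 arrays and entered the fit through its DKK + dox arrays alone. With every array required to exceed the limit it was left out, and 2 of 15 probe sets rose, beside 1630 of all 22817. Of the 16 probe sets, 3 rose, Hey2 among them, against 5.36 percent of all probe sets tested, 1 fell, against 4.12 percent, and 12 did not pass. By role, 5 of 6 receptor probe sets and 3 of 3 target probe sets were higher with dox at 24 hours, beside 51.7 percent of all probe sets tested, and 5 of 7 ligand probe sets were lower, beside 48.3 percent. Most of these differences did not pass, and the counts did not move with median centring or quantile normalization. The median difference at 24 hours was 0.31 over the receptors, -0.31 over the ligands and 0.37 over the targets, beside 0.01 over all probe sets tested. At 2-fold or more, none of the 16 differed at 6 hours, where 0.228 percent of all probe sets were higher and 0.57 percent lower. At 12 hours 0 were higher and 1 was lower, beside 1.21 and 1.85 percent, and at 24 hours 1 was higher and 1 lower, beside 2.71 and 1.85 percent.

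**Figure D1:**
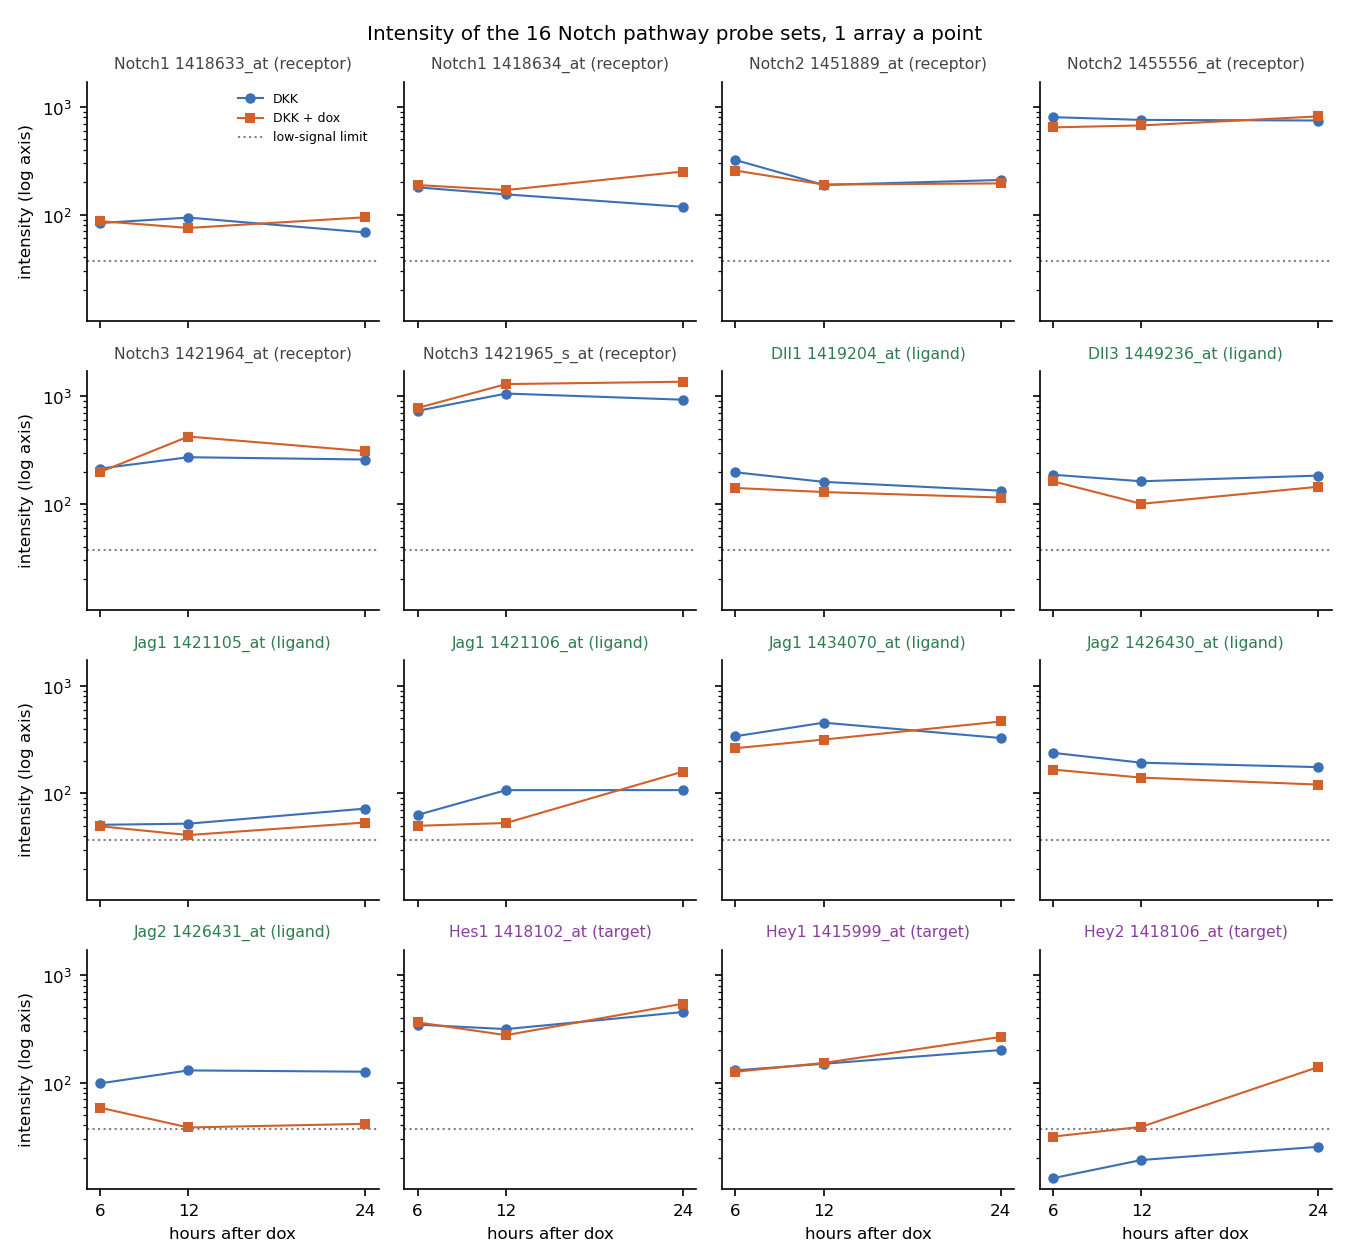
Intensity (log axis) against hours after dox for each of the 16 probe sets, 1 array a point, with DKK as blue circles, DKK + dox as orange squares and the low-signal limit of 37.2 as a dotted line; levels are not comparable between panels. Hey2 rises above the limit with dox while its DKK arrays stay below it, and Jag2 1426431_at lies lower with dox on each array.

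Notch1, a receptor needed for arterial and blood stem cell fates and for somite formation, was read by 2 probe sets. Probe set 1418634_at gave 179, 154 and 118 in DKK against 188, 169 and 252 in DKK + dox at 6, 12 and 24 hours. The treatments were close at the early times and parted at 24 hours, where the level had gone down without dox and up with it. The differences were 0.06, 0.12 and 0.97, and the probe set rose by 0.80 in the fit (SE 0.19, adjusted p = 0.0417 from limma). Probe set 1418633_at gave 83.5, 93.9 and 68.3 in DKK against 87.1, 75.2 and 94.5 in DKK + dox. Its differences of 0.05, -0.26 and 0.37 changed sign at 12 hours, and it did not pass (fitted 0.19, SE 0.23, adjusted p = 0.682 from limma). In both probe sets the lowest DKK array and the highest DKK + dox array were those of 24 hours, and the ranges of the treatments overlapped.

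Notch3, a receptor best known from the smooth muscle of arteries, was above its DKK level from 12 hours on in both of its probe sets. Probe set 1421965_s_at, of a type that may also match related transcripts, gave 734, 1063 and 932 in DKK against 781, 1302 and 1369 in DKK + dox. The gap widened at each time, with differences of 0.09, 0.29 and 0.54, and the probe set rose by 0.54 (SE 0.10, adjusted p = 0.0146 from limma). Probe set 1421964_at gave 213, 272 and 259 in DKK against 198, 424 and 309 in DKK + dox. It was highest with dox at 12 hours, not at 24, and the ranges overlapped in both probe sets, with differences of -0.10, 0.60 and 0.24, and did not pass (fitted 0.39, SE 0.21, adjusted p = 0.304 from limma).

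Notch2, a receptor with broad expression in the embryo, showed no difference that passed. Probe set 1455556_at gave 806, 760 and 750 in DKK against 647, 675 and 819 in DKK + dox, with differences of -0.31, -0.17 and 0.12. Probe set 1451889_at gave 322, 189 and 210 in DKK against 257, 190 and 195 in DKK + dox, with differences of -0.30, 0.01 and -0.10. Both were lower with dox at 6 hours and nearer the DKK level later, with overlapping ranges. The fitted differences were -0.03 (SE 0.16) and -0.13 (SE 0.17), with adjusted p = 0.948 and 0.736 from limma.

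All 7 ligand probe sets, from 4 genes, were lower with dox at both 6 and 12 hours, which held for 31.8 percent of all probe sets tested, and 5 of the 7 were lower at all 3 times, beside 20.9 percent. Their median differences were -0.35, -0.49 and -0.31 at 6, 12 and 24 hours, and those over all probe sets tested were -0.04, 0.00 and 0.01. With arrays centred on their medians or quantile normalized, 6 of 7 were lower at both early times and 4 of 7 at all 3. Of the 7, 1 fell in the fit and 6 did not pass.

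Jag2, a Jagged family ligand, had the largest decrease of the 16 probe sets. Probe set 1426431_at gave 98.4, 130 and 126 in DKK against 58.6, 38.3 and 41.4 in DKK + dox. Every DKK + dox array was below every DKK array, and the 12 and 24 hour arrays with dox came close to the low-signal limit. The share of all probe sets without overlap between the treatments was not computed, here or below. The differences were -0.59, -1.35 and -1.25, and the intensity at 12 hours was 3.39 times as high without dox as with it. The probe set fell by 1.58 in the fit (SE 0.29, adjusted p = 0.0153 from limma).

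The other Jag2 probe set, 1426430_at, gave 238, 193 and 175 in DKK against 166, 140 and 121 in DKK + dox. The level went down with time in both treatments, and here too the ranges did not overlap. Its differences of -0.47, -0.41 and -0.47 were nearly the same at each time, and it did not pass (fitted -0.61, SE 0.19, adjusted p = 0.101 from limma). The pair of Jag2 probe sets thus had the same sign at all 3 times but differed in size.

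Jag1, the other Jagged ligand and a known Notch activator in vessels, turned in sign between 12 and 24 hours in 2 of its 3 probe sets. Probe set 1434070_at gave 339, 454 and 327 in DKK against 262, 316 and 465 in DKK + dox. Probe set 1421106_at gave 63.0, 107 and 107 in DKK against 49.9, 53.0 and 159 in DKK + dox. In both, dox was below DKK at 6 and 12 hours and above it at 24 hours, with differences of -0.35, -0.49 and 0.48 for the first and -0.25, -0.79 and 0.49 for the second.

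The third Jag1 probe set, 1421105_at, went against these at 24 hours. It gave 51.0, 52.2 and 72.1 in DKK against 49.4, 40.9 and 53.5 in DKK + dox, the lowest of them close to the low-signal limit, and its differences were -0.03, -0.24 and -0.32. None of the 3 passed, with fitted differences of 0.11, 0.03 and -0.34 and adjusted p = 0.858, 0.980 and 0.407 from limma, in that order of description. A trend in proportion to time cannot follow a change of sign, so that the fit says little of the first and second probe sets.

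Dll1, a Delta family ligand of presomitic mesoderm and neural progenitors, gave 197, 161 and 133 in DKK against 141, 129 and 115 in DKK + dox (1419204_at). The level went down with time in both treatments, and dox was lower at each time by a gap that narrowed, while the ranges of the treatments overlapped. The values correspond to differences of -0.43, -0.28 and -0.18. It did not pass (fitted -0.33, SE 0.21, adjusted p = 0.406 from limma).

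Dll3, a divergent Delta protein of the presomitic mesoderm that is not known to activate receptors on neighbouring cells, gave 187, 163 and 184 in DKK against 163, 100 and 145 in DKK + dox (1449236_at). The array with dox at 12 hours was the lowest, and the treatments overlapped by a narrow margin. The differences were -0.18, -0.60 and -0.31, and the probe set did not pass (fitted -0.50, SE 0.21, adjusted p = 0.193 from limma).

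**Figure D2:**
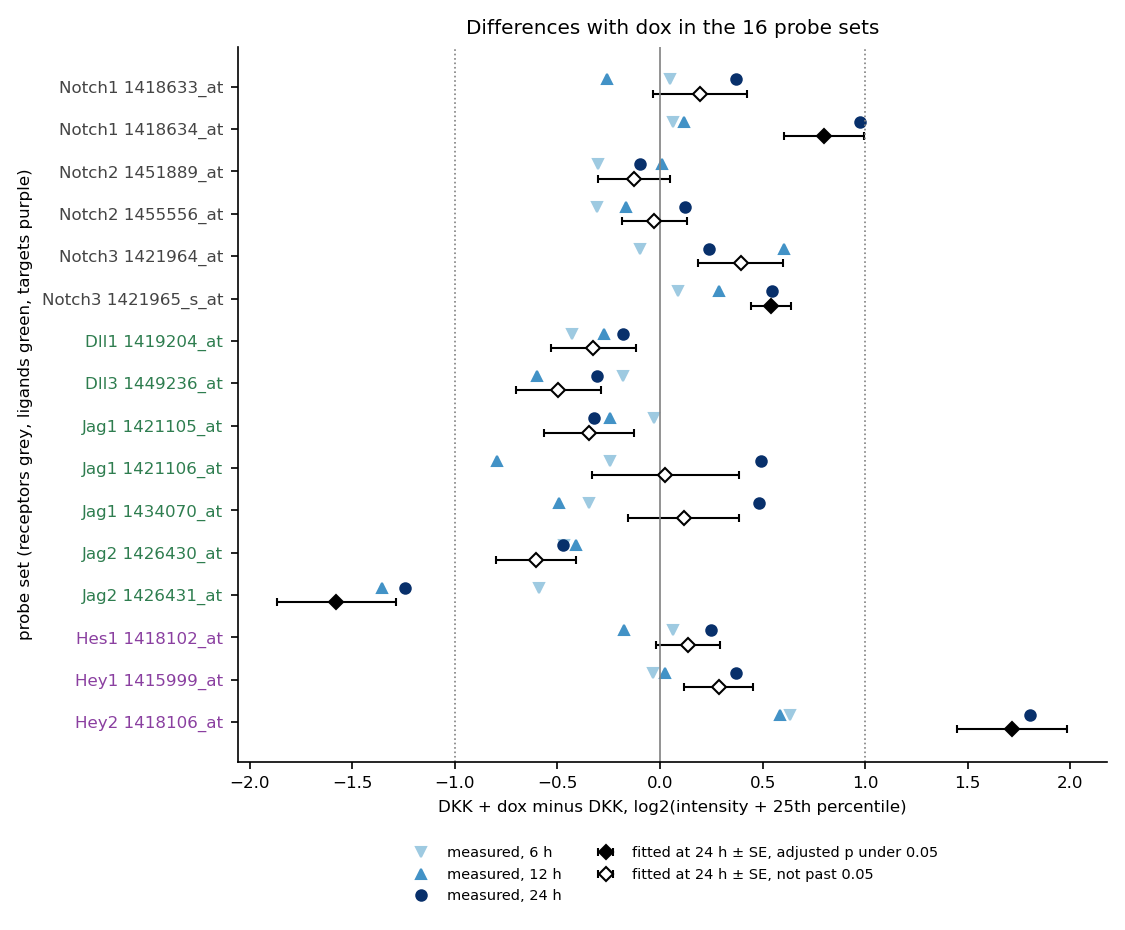
DKK + dox minus DKK on the log2(intensity + 20.6) scale, with the measured differences at 6, 12 and 24 hours as blue marks and the fitted value at 24 hours with its standard error as a diamond, filled where the adjusted p from limma was under 0.05. Dotted lines mark 2-fold; Hey2 and Jag2 1426431_at lie beyond them, and the ligand marks of 6 and 12 hours are all left of 0.

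Hey2, a repressor of the HEY family with roles in the ventricles of the heart and in arteries, was under the low-signal limit in DKK and above it with dox at 12 and 24 hours. It gave 12.9, 19.1 and 25.4 in DKK against 31.5, 38.9 and 140 in DKK + dox (1418106_at). All 3 DKK arrays and the 6 hour array with dox were at or under the low-signal limit, the 12 hour array with dox was just above it, and the 24 hour array was 3.76 times the limit. The treatments did not overlap, but the highest DKK array (25.4) and the lowest array with dox (31.5) were both under the limit. Read against the limit in place of the DKK value, Hey2 was at least 3.76-fold higher with dox at 24 hours. The values as measured gave differences of 0.64, 0.58 and 1.80 and a fitted rise of 1.72 (SE 0.27, adjusted p = 0.00884 from limma). Since Hey2 passed the filter on low signal through its DKK + dox arrays alone, its DKK level has no more than a bound. These sizes are not exact, and the p-value is not taken as support for the rise.

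Hey1, its closest relative, gave 130, 150 and 201 in DKK against 126, 153 and 266 in DKK + dox (1415999_at). Hey1 was higher at 24 than at 6 hours in both treatments, by 0.56 in DKK and 0.97 in DKK + dox, and the treatments were within 0.04 of each other at 6 and 12 hours. The differences with dox were -0.04, 0.02 and 0.37, and it did not pass (fitted 0.29, SE 0.17, adjusted p = 0.373 from limma).

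Hes1, a repressor that oscillates in ESCs, somites and neural progenitors, gave 346, 315 and 453 in DKK against 363, 276 and 542 in DKK + dox (1418102_at). Both treatments were lowest at 12 and highest at 24 hours, and their ranges overlapped. The differences of 0.07, -0.17 and 0.25 had no common sign, and Hes1 did not pass (fitted 0.13, SE 0.16, adjusted p = 0.679 from limma).

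The 4 calls depend on the form of the fit. None passed with 1 constant difference across the 3 times or without the intensity trend in eBayes. In the latter setting 0 of all 31597 probe sets passed in limma, while 6646 had an unadjusted p under 0.05. With linear time only Hey2 passed, and without the 24 hour arrays only Jag2. The call on Notch1 was also lost without the 6 hour arrays or without the filter on low signal (adjusted p = 0.0597 and 0.0559 from limma).

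The rest of the pathway was read from 62 genes in 6 lists, of which 58 had a probe set and 53 were above the low-signal limit, taking for each gene the probe set of highest mean. Of the 53, 3 rose (5.66 percent), 5 fell (9.43 percent) and 45 did not pass, and their median difference at 24 hours was 0.05. These calls use the p-values adjusted over all 31597 probe sets, of which 5.36 percent rose and 4.12 percent fell. In a separate fit of 1 probe set a gene over the whole array, with its own adjustment, 1227 of 14755 genes rose and 941 fell. Both backgrounds stand beside the counts of each list below, and the second is not at the same threshold as those counts. Of 4 other receptors and ligands none passed at an adjusted p under 0.05 from limma, and 0 had an unadjusted p under 0.05. The largest difference at 24 hours among them was that of the endothelial receptor Notch4, at 0.39 (fitted 0.42, adjusted p = 0.290 from limma), while another Notch4 probe set, 1436901_at, was at -0.33. Dner was under the limit on all 6 arrays.

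Of 10 genes tested in the list of other targets and further HES family genes, 0 rose, 2 fell and 8 did not pass. In the separate fit of 1 probe set a gene, with its own adjustment, 1227 of 14755 genes rose and 941 fell. Membership of the list does not show a response to Notch. Hes6, a HES family protein that opposes Hes1, gave 694, 814 and 788 in DKK against 355, 237 and 349 in DKK + dox (1436050_x_at). Every array with dox was below every DKK array, and Hes6 fell by 1.68 (SE 0.37, adjusted p = 0.0310 from limma), as did its second probe set, 1452021_a_at, by 0.93 (adjusted p = 0.0231). The list was chosen with earlier results of these data known, so Hes6 is not independent evidence of a direction. Cyclin D1 (Ccnd1), picked out after its values were seen, fell by 0.62 (1417420_at, adjusted p = 0.00228 from limma).

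Dtx1, a ubiquitin ligase that is both a target and a regulator of Notch, had probe sets that disagreed. Probe set 1425822_a_at gave 309, 276 and 323 in DKK against 141, 72.7 and 91.7 in DKK + dox, without overlap. The measured differences were -1.03, -1.67 and -1.61, and it fell by 2.06 in the fit (SE 0.33, adjusted p = 0.00962 from limma). Probe set 1458643_at, which has the higher mean and stands for the gene in the list, was at 0.10 at 24 hours and in the fit (adjusted p = 0.847). The direct targets Nrarp, Heyl and Hes5 had fitted differences of 0.00, -0.20 and -0.10 in their probe sets of highest mean, and none passed. A second Hes5 probe set, 1456010_x_at, went apart from this, with 25.1, 49.3 and 43.0 in DKK against 21.2, 8.37 and 11.7 in DKK + dox, all dox arrays under the low-signal limit, and did not pass either (fitted -1.25, adjusted p = 0.0676 from limma). These 3 were picked out after their values were seen. Hes7 and Gata3 were under the limit on all arrays.

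Among 6 genes of receptor glycosylation and maturation none passed at an adjusted p under 0.05 from limma, and 2 had an unadjusted p under 0.05. The Fringe glycosyltransferase Mfng had the largest difference, with 115, 87.0 and 87.5 in DKK against 66.3, 33.0 and 44.6 in DKK + dox, without overlap (fitted -1.06, adjusted p = 0.0634 from limma). Of 11 genes of ubiquitination and endocytosis, 2 rose and 1 fell. The ubiquitin ligase Dtx4 fell by 1.16 in the fit (adjusted p = 0.0336 from limma), with measured differences of -0.88, -0.83 and -0.89. Nedd4 and the Notch inhibitor Numb, named here because they passed, rose by 0.38 and 0.51 (adjusted p = 0.0259 and 0.0405 from limma). A second probe set of Dtx4 (1455711_at, fitted -0.996) and of Numb (1425368_a_at, fitted 0.23) did not pass.

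Of 7 cleavage genes, 1 rose. Adam10, the metalloprotease that makes the first cut after ligand binding, gave 444, 538 and 472 in DKK against 428, 796 and 1084 in DKK + dox (1428103_at). The treatments were level at 6 hours and dox was higher from 12 hours on, and the probe set rose by 1.09 (SE 0.15, adjusted p = 0.00607 from limma). Its probe set 1450105_at rose by 0.86 (adjusted p = 0.0234), and 1450104_at was at -0.40 at 24 hours and did not pass. Probe set 1460083_at, under the low-signal limit at 12 and 24 hours in both treatments, was at -0.47 at 24 hours and did not pass either. Of 15 genes of the nuclear complex, 0 rose and 2 fell, the acetyltransferase Kat2b by 0.85 (adjusted p = 0.00528 from limma) and the corepressor Ctbp2 by 0.29 (adjusted p = 0.0429). A second probe set of each, 1450821_at and 1422887_a_at, had the same sign in the fit (-0.58 and -0.31) and did not pass. Rbpj had differences of -0.15, -0.02 and 0.21 and did not pass.

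**Figure D3:**
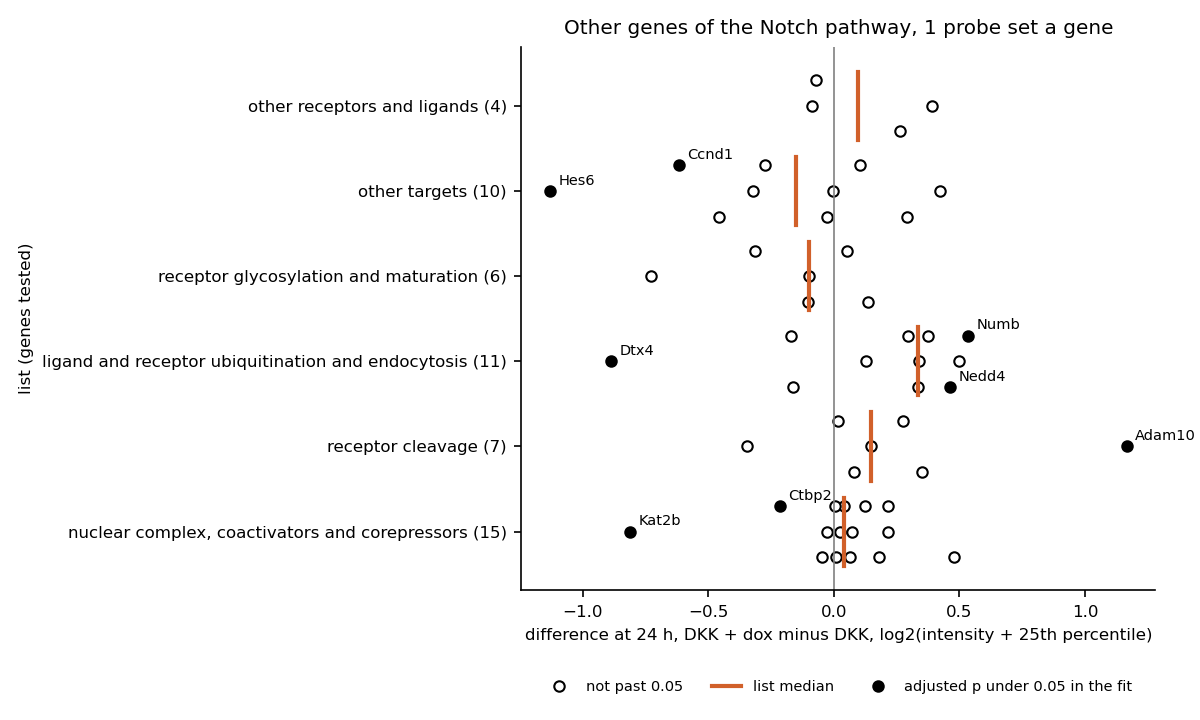
Difference at 24 hours, DKK + dox minus DKK on the log2(intensity + 20.6) scale, for the 53 tested genes of 6 lists, 1 probe set a gene, with genes that passed (adjusted p under 0.05 from limma) filled and named and each list's median as an orange line. Adam10 lies farthest to the right and Hes6 farthest to the left, and the medians run from -0.15 to 0.34.

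Markers of several cell types moved with dox beside the Notch genes. Of 12 markers of blood and endothelium, 10 were tested and 8 rose, and their summed intensity was 1069 to 1524 in DKK and 1103, 4548 and 4803 with dox at 6, 12 and 24 hours. Among the 8, Cdh5 entered the fit through its array with dox at 24 hours alone (145). Its call is not taken as support for a rise. The most abundant was Etv2 (389 in DKK and 1257 in DKK + dox at 24 hours), and the largest difference was that of Fli1 (20.9 and 693), while Pecam1 and Tie1 were under the low-signal limit on all arrays and 2 genes of the list had a value at the floor of 1. Of 12 markers of parietal endoderm, all tested, 6 rose, with sums of 3527 to 5387 in DKK and 4792 to 6903 with dox (Sparc 1259 and 2132, Sox7 25.1 and 356 at 24 hours). Of 10 feeder fibroblast markers, 7 were tested and 2 rose, with sums of 987 to 2024 and 1251 to 1593 (S100a4 718 and 769, Col3a1 21.5 and 221 at 24 hours), with Lum, Postn and Fap under the limit throughout and 2 genes with a value at the floor of 1.

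Markers of pluripotent cells and epiblast were present on every array, with sums of 42430 to 46670 in DKK and 39160 to 41390 with dox. Of 9 tested, 4 fell, among them Dnmt3b, the most abundant, and Fgf5, with the largest difference (1821 in DKK and 541 in DKK + dox at 24 hours). Of the markers of presomitic and paraxial mesoderm, where Dll1 and Dll3 are known to act, 6 of 10 were tested and 1, Tcf15, fell, with sums of 917 to 3995 in DKK and 699 to 3110 with dox. Most of the highest sums, those of 6 hours, was Tcf15 alone, at 3472 in DKK and 2604 with dox. Msgn1, Ripply2, Uncx and Foxc2 were under the limit on all arrays. Neural markers had sums of 1281 to 1641 and 1141 to 1571, with Tubb3 risen and Neurod1 fallen of 8 tested, and visceral endoderm markers 1148 to 4206 and 1202 to 3869, with 0 of 8 passing in limma and 1 with an unadjusted p under 0.05 (Rhox5 the most abundant, Ttr with the largest difference, -0.90 at 24 hours, and Afp and Apob under the limit throughout). The study displays some of these markers from the same arrays, so their directions are not independent evidence. The part of these cell types in the differences of Hey2, Notch1, Notch3 and the ligands was not tested.

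**Figure D4:**
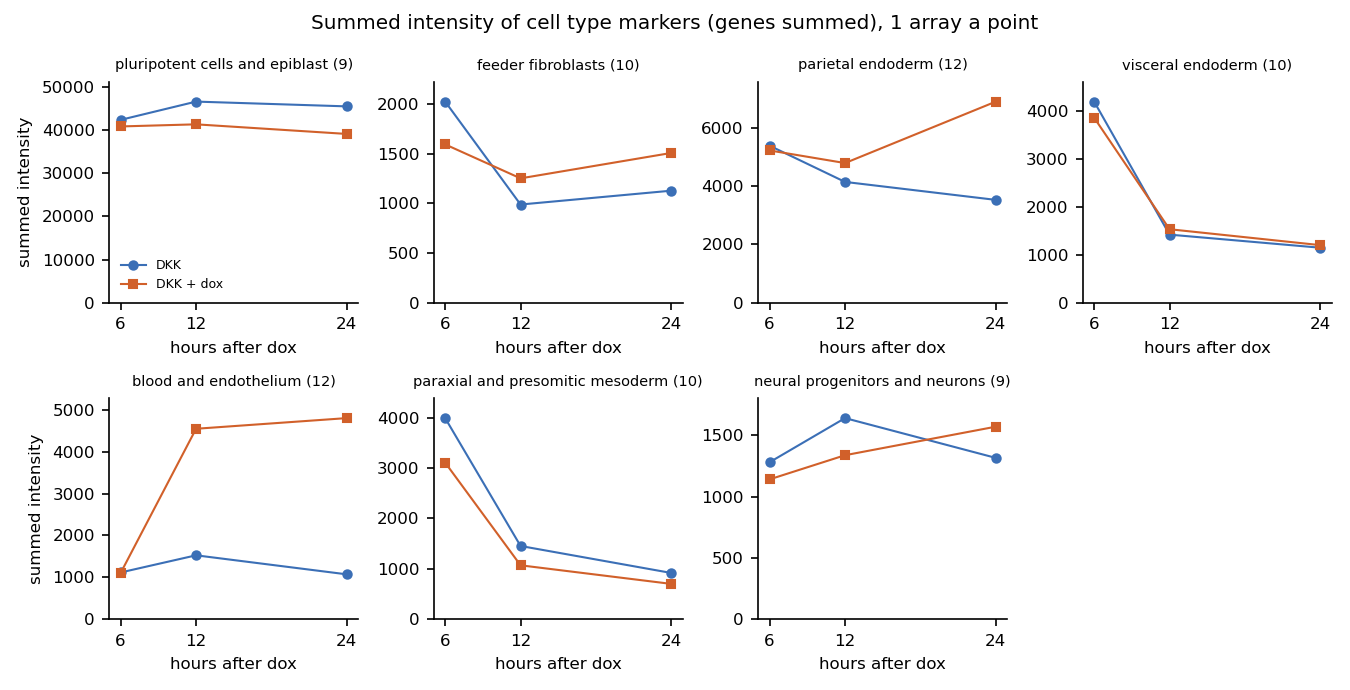
Summed intensity of 7 lists of cell type markers against hours after dox, 1 probe set a gene and 1 array a point, with DKK as blue circles and DKK + dox as orange squares. The blood and endothelium sum is 4.49 times as high with dox as without at 24 hours and the parietal endoderm sum 1.96 times, while the visceral endoderm lines nearly coincide.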

How the data were processed

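Labelled cRNA from total RNA of 6 cultures was hybridised to Affymetrix Mouse 430 2.0 arrays, and groups were taken from the labels. The authors normalized and modelled the arrays in dChip and deposited linear intensities, 1 value per probe set and array; the dChip version is not given in the sources used here. Intensities were used as log2(intensity + 20.6), the offset being the 25th percentile of all values.

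Of 45037 probe sets, 34945 carried a single symbol, and all 16 probe sets of the 10 Notch genes matched the same symbol in RefSeq through their Entrez ID. The lists use no probe set with several symbols or without one. limma 3.58.1 in R 4.3.3 fitted 31597 probe sets, those with a highest value above 37.2, with the 3 times as blocks and dox multiplied by hours divided by 24 (eBayes moderated with a trend in intensity and 5.87 prior degrees of freedom). Adjusted p-values follow Benjamini and Hochberg, with 0.05 as the threshold. The fit was also run on data simulated from the fitted model itself. Such data cannot test departures from a proportional trend or the spread between cultures. Differences at 1 time carry no test, and the number of arrays limits the precision. Matplotlib 3.10.9 in Python 3.11.15 drew the figures.

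The 10 genes, the lists and the alternatives (offset, filter, normalization, probe set, model, fold threshold, left-out time) were chosen with earlier results of these data known. Named outside the 10 genes are Snai1 and Cdh1, list genes that passed with 1 sign at all 3 times and 2-fold at 24 hours, or else the list's largest difference at 24 hours, and in marker lists the most abundant gene and that with the largest difference. Others were picked out after their values were seen.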

Additional observations from a re-analysis of the deposited data

Results flagged for a closer look

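Jag1 drew attention because the difference with dox turned from lower to higher by at least 1.25-fold on either side of 0, with all values above the low-signal limit. In probe set 1421106_at the difference at 24 hours was 1.29 above that at 12 hours on the log2 scale (0.49 against -0.79). In probe set 1434070_at it was 0.83 above that at 6 hours and 0.98 above that at 12 hours. Each is a difference between pairs of single arrays and was not tested. The third Jag1 probe set, 1421105_at, was lower with dox at all 3 times.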

How the results depend on the processing

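The 16 fitted differences were recomputed under up to 16 alternatives, 247 values in all, of which 222 kept their direction and their side of the threshold, 16 lost the call and 9 reversed. The number of probe sets that rose was 3, and it was 0 with a constant difference, 0 without the intensity trend, 0 without the 24 hour pair and 1 with linear time. The number that fell was 1, and it was 0 with a constant difference, linear time, no intensity trend, or 1 probe set a gene, which reads Jag2 from 1426430_at. Hey2 and Jag2 1426431_at each kept their call in 12 of 15 alternatives (adjusted p 0.00189 to 0.308 and 0.00399 to 0.0923 from limma), Notch3 1421965_s_at in 11 of 15 (0.0105 to 0.444) and Notch1 1418634_at in 10 of 16 (0.0109 to 0.790). For Hey2, which passed the main filter through its DKK + dox arrays alone, the kept calls and p-values are not taken as support. The filter on every array, which leaves Hey2 out, is not among its 15. Over all 31597 probe sets, 1694 rose and 1303 fell, against 30 and 133 with a constant difference, 198 and 115 with linear time, 331 and 772 without the 24 hour pair and 0 and 0 without the intensity trend. The split of calls was 1708 and 1645 after quantile normalization. Counts at 2-fold moved most with the threshold: at 1.5-fold 1 was higher and 1 lower at 6 hours, 1 higher and 3 lower at 12 hours and 2 higher at 24 hours. With an offset of 1, there was 1 higher at 6 hours, 2 lower at 12 hours and 2 higher at 24 hours. With 1 probe set a gene, 0 were lower at 12 and at 24 hours, and with all 6 arrays required to exceed the limit (an alternative added after seeing the data) 0 were higher at 24 hours, since Hey2 is left out. Fitted values that reversed without the 24 hour pair were those of Notch1 1418633_at (-0.37), Jag1 1421106_at (-1.47) and 1434070_at (-1.07) and Hes1 (-0.23). Notch2 1455556_at went to 0.032 without the 6 hour pair and 0.044 without the 12 hour pair. Jag1 1421106_at went to -0.012 with an offset of 1 and -0.18 with a constant difference, and 1434070_at to -0.12 with the latter. The cause was not tested. Signal limits Hey2 most, with 4 of 6 arrays at or under the low-signal limit. The fit itself pairs the DKK and DKK + dox arrays of each time as a block, and the labels give no replicate numbers for another pairing.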
